A study of Mus musculus with 419 samples.

Results

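The 10 genes described here belong to autophagy and mitophagy and were followed through a transcriptome atlas of energy deficiency in the mouse. They are Sqstm1, Map1lc3a, Map1lc3b, Gabarapl1, Bnip3, Ulk1, Becn1, Tfeb, Ctsl and Atg7, and they were taken by gene symbol from a table of 55487 genes, in which all 10 were found. The atlas holds 419 bulk RNA-seq libraries from 19 tissues of CBA/CaJ mice, an inbred strain, and models relative energy deficiency in sport (REDs), the syndrome of athletes who take in too little energy for what they spend. Animals labelled Control were energy-sufficient and animals labelled Deficient were energy-deficient, with no allele or agent named in either group. The labels used here give no age, and they do not say how the deficiency was made. Each sex was sampled at ZT05 and ZT17, where zeitgeber time (ZT) counts the hours from lights on. Crossing tissue, sex, treatment and time gave 140 groups, of which 139 had 3 libraries and 1 had 2 (male tibialis anterior tendon, Control at ZT05). Females gave 18 tissues and males 17, with 16 in common.

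Autophagy encloses cytoplasm in a double membrane and delivers it to the lysosome for breakdown, which returns amino acids, lipids and sugars to a starved cell. Ulk1 and Becn1 belong to the kinase complexes that start the membrane, Atg7 is the E1-like enzyme that activates the LC3 and GABARAP proteins for coupling to lipid, and Map1lc3a, Map1lc3b and Gabarapl1 encode 3 of those membrane-bound proteins. Sqstm1 (p62) is a receptor that ties ubiquitinated cargo to LC3, Bnip3 is a receptor on the outer mitochondrial membrane that selects mitochondria for removal (mitophagy), Ctsl encodes the lysosomal protease cathepsin L, and Tfeb is a transcription factor for lysosomal and autophagy genes. In skeletal muscle, several of these genes are known targets of FoxO factors in fasting and disuse. A transcript level measures neither the flux of autophagy nor its proteins.

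Since the basic helix-loop-helix factors of the clock and of the TFEB family can bind the palindrome CACGTG (the E-box), the promoter windows of RefSeq (build GRCm38.p6, from 250 bases before to 50 after a start site) were searched for it on both strands. Windows were found for 8 of the 10 genes. The E-box was in the windows of 3 of these (Bnip3, Ctsl and Atg7) and in 7.15% of all 32851 windows. The longer CLEAR element, which contains the E-box and occurs in 0.326% of windows, was in none of the 8 genes, nor were the FOXO letters TGTTTAC (3.65%), the D-box (0.938%) or the glucocorticoid receptor element (0.475%). The 2 stretches below are shown because Bnip3 and Ctsl had the largest numbers of changed tissues, and capitals mark the E-box. The Bnip3 stretch lies on the minus strand at chr7:138909549-138909674, upstream of the gene, with the E-box starting at position -108 from the start site. The Ctsl stretch lies on the minus strand at chr13:64370741-64370770 and its E-box starts at position -236 from the start site used by RefSeq. The Ctsl stretch and the Atg7 window lie inside those genes as GENCODE annotates them. A match of letters is not evidence of binding.
Bnip3: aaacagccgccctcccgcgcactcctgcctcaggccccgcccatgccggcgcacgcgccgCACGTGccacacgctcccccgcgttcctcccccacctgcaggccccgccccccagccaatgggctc
Ctsl: gcggcgttagaagcCACGTGctgatctaaa

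Libraries held between 5777450 and 53598697 counts. In 58 libraries, all of them male, over 50% of the counts came from mitochondrial genes or genes that collect ribosomal RNA, so levels are given as CPM, counts scaled to a common depth over the counts outside those genes, with TMM factors. Those remaining counts ran from 329862 to 48525310 per library. The female tissues came from 12 animals and the male tissues from 24, so the tissues of 1 animal share a source and are not independent. The males fell into 2 numbered sets of animals: 5 tissues came from the set numbered like the females (31 to 62), 7 from the set numbered 73 to 94, and 5 from both, and in those 7 tissues sex and animal set cannot be told apart. Defining markers were present in the labelled tissues with 1 exception. In the 12 ovary libraries, Zp3 (an oocyte coat protein) had a median of 0.995 CPM (0.334 to 90.9) and Amh (granulosa cells) of 0.218 CPM (0.0572 to 136). Inha, another ovary marker, had a median of 8.18 CPM (4.01 to 1676), beside 6.42 CPM in the libraries of other tissues. Tendon libraries held tendon markers (Fmod median 2170 CPM) but also skeletal muscle RNA, with summed medians of 5 muscle genes between 73600 and 132400 CPM in females.

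Control tissues differed widely in how much of each transcript they held, and no tissue was highest for all. Levels are compared between genes per kilobase of the principal transcript. On that scale, over the medians of the 18 female Control tissues, Sqstm1 was the most abundant (median 206 CPM per kb, 76.5 to 496), followed by Ctsl (140 CPM per kb, 59.8 to 1021) and Map1lc3a (103 CPM per kb, 6.63 to 340). Bnip3 (84.0 CPM per kb), Map1lc3b (81.2 CPM per kb) and Gabarapl1 (78.5 CPM per kb) lay close together. Becn1 (19.2 CPM per kb), Ulk1 (14.1 CPM per kb), Tfeb (11.3 CPM per kb) and Atg7 (4.17 CPM per kb) were the scarce ones. In relative terms the range over tissues was narrowest for Ulk1 and Becn1 and widest for Map1lc3a and Bnip3, both lowest in spleen.
On GRCm38 (GENCODE M21), Map1lc3a lies at chr2:155276297-155278073, Map1lc3b at chr8:121590361-121598760, Gabarapl1 at chr6:129533160-129542346, Atg7 at chr6:114643097-114860614 and Tfeb at chr17:47737030-47792419, all on the plus strand. Sqstm1 lies at chr11:50199366-50210827, Becn1 at chr11:101285952-101302286, Bnip3 at chr7:138890836-138909519, Ulk1 at chr5:110784488-110810097 and Ctsl at chr13:64359337-64370890, all on the minus strand. The counts cover whole genes, so exons and UTRs were not told apart.

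Among the LC3 and GABARAP transcripts, Gabarapl1 was highest in female kidney (617 to 1385 CPM, median 849, n = 6), whose range did not overlap that of liver, the next tissue (170 to 529 CPM, median 362). Its lowest tissue was spleen (36.8 to 51.4 CPM, median 44.7), which overlapped tibialis anterior (41.1 to 56.7 CPM, median 48.9). Map1lc3a was highest in adrenal gland (238 to 670 CPM, median 378), overlapping heart (252 to 317 CPM, median 284), and lowest in spleen (6.36 to 8.93 CPM, median 7.37). Map1lc3b led in brown adipose tissue (255 to 313 CPM, median 282), with overlap, and was lowest in liver (60.6 to 104 CPM, median 78.7), below every Control library of the next tissue.
Of the receptors, Sqstm1 was highest in adrenal gland (656 to 1259 CPM, median 1010), apart from all others, and lowest in brown adipose tissue (135 to 183 CPM, median 156). Bnip3 was highest in soleus, a slow limb muscle (413 to 589 CPM, median 517), then in brown adipose tissue (282 to 508 CPM, median 341). Those 2 tissues overlapped each other, and brown adipose tissue did not overlap the next one, gastrocnemius (154 to 260 CPM, median 205). Bnip3 in spleen was 10.3 to 12.4 CPM, under every library of the next lowest tissue, uterus (18.9 to 109 CPM).
Ulk1 (tibialis anterior median 96.5 CPM) and Tfeb (tibialis anterior tendon median 58.9 CPM) had top tissues that overlapped the next ones. Becn1 was highest in uterus (167 to 250 CPM, median 196), apart from spleen (141 to 164 CPM, median 149). Atg7 was highest in lung (39.5 to 48.1 CPM, median 41.5) and lowest in the gastrocnemius tendon (8.25 to 11.3 CPM, median 10.5), both with overlap of their neighbours. Ctsl was highest in uterus, where the Control libraries themselves spread from 509 to 3688 CPM (median 2013), overlapping ovary (763 to 1161 CPM, median 965), and liver came next (564 to 842 CPM, median 662). The tissue ranked highest stayed the same for 9 of the 10 genes without TMM factors and for 8 when all counts were used as the total. The tissue ranked lowest stayed the same for 8 of the 10 under each of these. TMM factors were fitted within each tissue and sex, so they do not scale tissues to each other.
In male Controls, kidney was again highest for Gabarapl1 (597 to 1026 CPM, median 725), soleus for Bnip3 (314 to 417 CPM, median 358) and adrenal gland for Sqstm1 (814 to 1056 CPM, median 907). Testis, which only males gave, was highest for Map1lc3a (239 to 279 CPM, median 254) and lowest for Sqstm1 (74.2 to 78.6 CPM, median 77.8), Bnip3 (9.12 to 11.96 CPM, median 10.7), Ulk1 (27.9 to 32.2 CPM, median 30.8) and Tfeb (4.096 to 7.13 CPM, median 5.79).

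In energy-deficient females, 6 of the 10 genes rose in several of the 5 limb muscles: Bnip3 and Ulk1 in 5, Ctsl, Map1lc3b and Sqstm1 in 4 and Gabarapl1 in 3. Over 18 tissues and 10 genes (180 pairs), 47 pairs rose and 3 fell at an adjusted p under 0.05 (edgeR quasi-likelihood test, Benjamini-Hochberg over all genes of a tissue and sex). That is 26.1% raised and 1.67% lowered, against 6.88% and 7.34% of all genes tested. The response is the log2 fold change of Deficient over Control averaged over both times. Grouped by anatomy, a grouping made after the values were seen, the 5 limb muscles (quadriceps, gastrocnemius, extensor digitorum longus, tibialis anterior and soleus) held 26 of the rises in 50 pairs and no fall, beside 10.7% raised and 11.1% lowered among all genes there. The 3 tendons held 9 rises in 30 pairs (3.27% of all genes raised, 3.09% lowered), and the other 10 tissues 12 rises and 3 falls in 100 pairs (6.19% of all genes raised, 6.86% lowered). Of the tendon rises, 8 were in the gastrocnemius tendon, where 9.21% of all genes rose. The extensor digitorum longus tendon held 1 (1.02% of all genes raised) and the tibialis anterior tendon 0 (0.0438%). The median response of the members in limb muscle was 0.36, and that of all genes 0.0001. Without ovary the female counts were 46 raised and 2 lowered, and without the tendons 38 raised. In a fit of both sexes together, in which male and female libraries share the estimate of spread, 30 female pairs were raised and 3 lowered. In bulk tissue, a change in the number of cells of a type and a change in RNA per cell cannot be told apart.

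**Figure D1:**
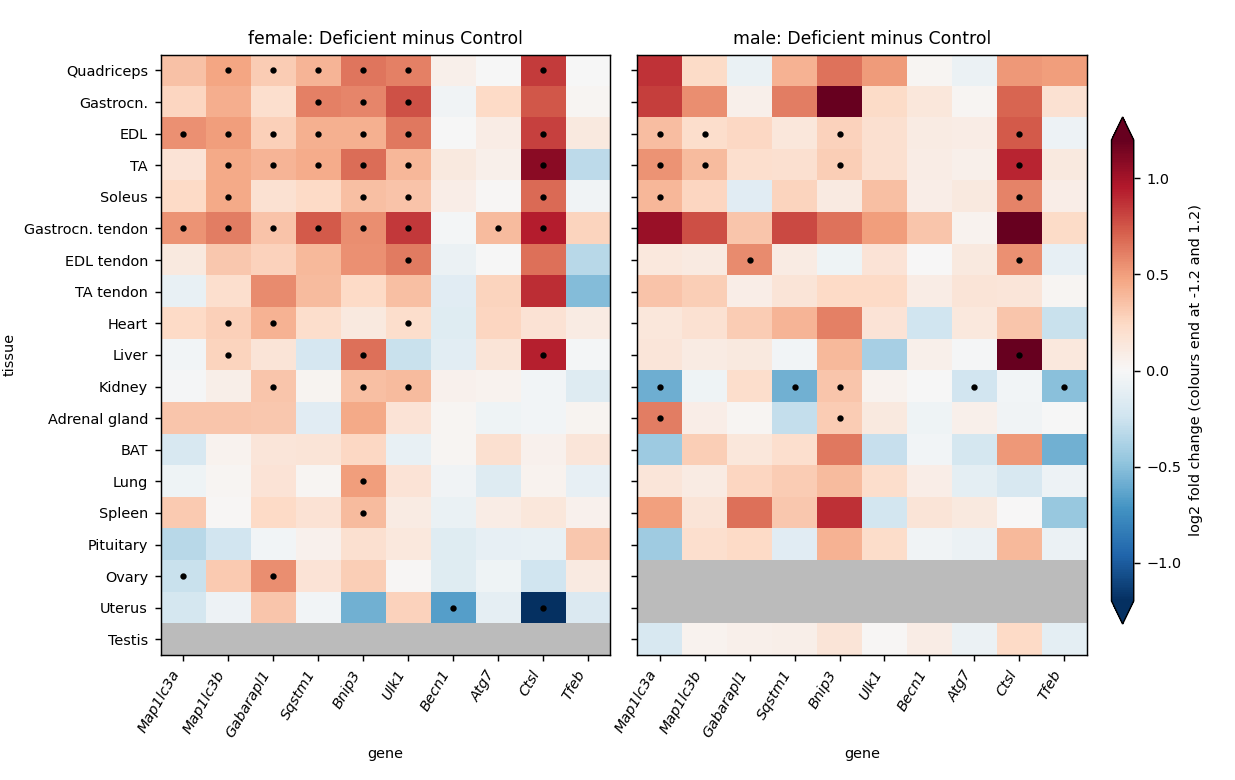
Response to energy deficiency (colour, log2 fold change of Deficient over Control, ends at -1.2 and 1.2) of the 10 genes (columns) in each tissue (rows) of females and males, with a dot where the adjusted p was under 0.05 and grey where a sex lacks the tissue. In the 5 female limb muscles Bnip3 and Ulk1 carry 5 red cells with a dot each and Map1lc3b, Sqstm1 and Ctsl 4, whereas Becn1 carries 1 dot and Tfeb none in females.

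Map1lc3b, which coats the forming autophagosome, rose in 7 female tissues and fell in none, and was higher in 16 of 18. In female tibialis anterior the Control libraries ran from 190 to 219 CPM (median 204, n = 6) and the Deficient ones from 242 to 350 CPM (median 270, n = 6). No Deficient library overlapped the Controls, and the response was 0.45 ± 0.07 (SE, edgeR adjusted p = 0.00039). The same separation was seen in extensor digitorum longus (187 to 209 CPM against 243 to 340 CPM, response 0.50 ± 0.06, edgeR adjusted p = 8.47e-05) and in soleus (159 to 206 CPM against 237 to 280 CPM, response 0.45 ± 0.07, edgeR adjusted p = 0.00225). The largest rise was in the gastrocnemius tendon, from 200 to 245 CPM (median 218) to 275 to 472 CPM (median 327), with a response of 0.61 ± 0.11 (edgeR adjusted p = 0.00414). The 5 skeletal muscle genes summed to a median of 119100 CPM in the Control and 113800 CPM in the Deficient libraries of this tendon, with 1 of 5 called lower. Among the marker genes described below, 4 of 6 macrophage genes were called lower there and 1 of 3 endothelial genes higher. Adipocyte and neutrophil genes had 0 calls. The part of these cells in the rises of this tendon was not tested. In the fit of both sexes the Map1lc3b response in this tendon was 0.61 and not called (edgeR adjusted p = 0.348). Heart showed a smaller shift without overlap, from 228 to 274 CPM to 287 to 344 CPM (response 0.29 ± 0.06, edgeR adjusted p = 0.00931).

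Gabarapl1, a GABARAP family protein of the autophagosome membrane, rose in 7 female tissues. Heart gave the cleanest separation, with Control libraries at 145 to 169 CPM (median 158) and Deficient ones at 196 to 230 CPM (median 209). The response there was 0.42 ± 0.05 (edgeR adjusted p = 0.000271). The largest called rise was in ovary, from 206 to 306 CPM (median 246) to 257 to 454 CPM (median 397), a response of 0.56 ± 0.12 (edgeR adjusted p = 0.0212) with overlapping libraries. It was not called without Deficient ZT05 replicate 1 (edgeR adjusted p = 0.051) or Deficient ZT17 replicate 1 (edgeR adjusted p = 0.0606). Map1lc3a behaved less uniformly. It rose in extensor digitorum longus, from 108 to 146 CPM (median 123) to 135 to 260 CPM (median 182), a response of 0.55 ± 0.10 (edgeR adjusted p = 0.00129), and in the gastrocnemius tendon (0.54 ± 0.15, edgeR adjusted p = 0.026). In ovary it fell by 0.26 (SE 0.07, edgeR adjusted p = 0.0453), a call lost in 10 of 12 refits that each left out 1 replicate. With all replicates, the call was also lost with the replicate number as a block (edgeR adjusted p = 0.0625). The 6 macrophage genes described below summed to a median of 180 CPM in Control and 111 CPM in Deficient ovaries, with 4 of 6 called lower, and their part in the result was not tested. Ovary libraries also varied widely in Zp3, Amh and Inha, and the part of this in the Gabarapl1 and Map1lc3a results was not tested.

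Bnip3 was the member raised in most tissues: 10 of 18 in females, with no fall, and 17 of 18 higher. In tibialis anterior its Control libraries lay between 131 and 178 CPM (median 151) and its Deficient libraries between 182 and 371 CPM (median 224). The groups did not overlap, and the response was 0.67 ± 0.10 (edgeR adjusted p = 0.000435). Quadriceps behaved alike (169 to 214 CPM against 223 to 416 CPM, response 0.64 ± 0.09, edgeR adjusted p = 0.000501). Outside muscle, Bnip3 rose in liver from 109 to 155 CPM to 148 to 252 CPM (0.66 ± 0.11, edgeR adjusted p = 0.00125), in lung (0.50 ± 0.13, edgeR adjusted p = 0.0369), in spleen (0.38 ± 0.08, edgeR adjusted p = 0.0125) and in kidney (0.36 ± 0.10, edgeR adjusted p = 0.0364), each with some overlap. Uterus was the 1 female tissue where it was lower, at -0.57, without passing the test.

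Sqstm1 rose in 5 female tissues, all of them muscle or the gastrocnemius tendon. In that tendon it went from 451 to 523 CPM (median 494) in Control to 603 to 1222 CPM (median 750) in Deficient libraries. The groups did not overlap, and the response was 0.73 ± 0.14 (edgeR adjusted p = 0.00466). In the fit of both sexes it was 0.73 and not called (edgeR adjusted p = 0.301). In tibialis anterior the libraries were separated too, at 412 to 471 CPM and 498 to 736 CPM (0.44 ± 0.09, edgeR adjusted p = 0.00182). Soleus, the slow muscle in which Bnip3 was highest, was not among the called tissues for Sqstm1.

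Ulk1, the kinase that starts autophagy, rose in 9 female tissues and fell in none. The largest rise, again in the gastrocnemius tendon, took it from 49.8 to 76.4 CPM (median 59.9) to 94.1 to 130 CPM (median 104), without overlap (response 0.85 ± 0.11, edgeR adjusted p = 0.000957). Extensor digitorum longus gave 77.0 to 101 CPM in Control and 110 to 150 CPM in Deficient libraries (0.63 ± 0.07, edgeR adjusted p = 8.46e-05). Kidney (0.38 ± 0.09, edgeR adjusted p = 0.0219) and heart (0.21 ± 0.06, edgeR adjusted p = 0.0388) rose by less, with overlap. Becn1, a subunit of the lipid kinase complex that acts after Ulk1, had a median response of -0.04 over the female tissues and rose in none. It fell in uterus, from 167 to 250 CPM (median 196) to 105 to 142 CPM (median 128), with no overlap (response -0.66 ± 0.11, edgeR adjusted p = 0.000858). Uterus was a tissue of broad change, with 21.1% of all genes raised and 24% lowered, beside 0 and 2 of the 10 members.

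Atg7 was called in 1 female tissue and Tfeb, averaged over both times, in none. Atg7 rose in the gastrocnemius tendon alone, from 8.25 to 11.3 CPM (median 10.5) to 11.1 to 15.5 CPM (median 12.9), a response of 0.38 ± 0.11 (edgeR adjusted p = 0.0294). That call was lost in 7 of 12 refits without 1 replicate. With all replicates, it was also lost with the replicate number as a block (edgeR adjusted p = 0.0512) and in the fit of both sexes (edgeR adjusted p = 0.399). Averaged over both times, Tfeb passed the test in no female tissue, and at ZT17 alone it was called lower in 1 of 18. Its response averaged over both times ran from -0.52 to 0.32 with a median of 0.01. Taken at each time alone, the median response was 0.25 at ZT05 and -0.27 at ZT17.

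Ctsl, the lysosomal protease, gave both the largest rise and the largest fall. In female tibialis anterior it rose from 112 to 147 CPM (median 118) to 191 to 411 CPM (median 235), a response of 1.08 ± 0.14 (edgeR adjusted p = 0.000125) with no overlap. Every called muscle was separated in the same way: quadriceps (180 to 237 CPM against 274 to 504 CPM), extensor digitorum longus (142 to 204 CPM against 229 to 445 CPM) and soleus (296 to 342 CPM against 396 to 731 CPM). In liver, whose Control level was already high, it went from 564 to 842 CPM (median 662) to 802 to 1637 CPM (median 1373), a response of 0.93 ± 0.12 (edgeR adjusted p = 0.00024) with slight overlap. Uterus went the other way. Its Control libraries spread from 509 to 3688 CPM (median 2013) and its Deficient libraries sat between 272 and 372 CPM (median 316). The lowest Control library was still above the highest Deficient one, and the response was -2.65 ± 0.37 (edgeR adjusted p = 0.000379). Of all genes tested in uterus, 24% were lowered.

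**Figure D2:**
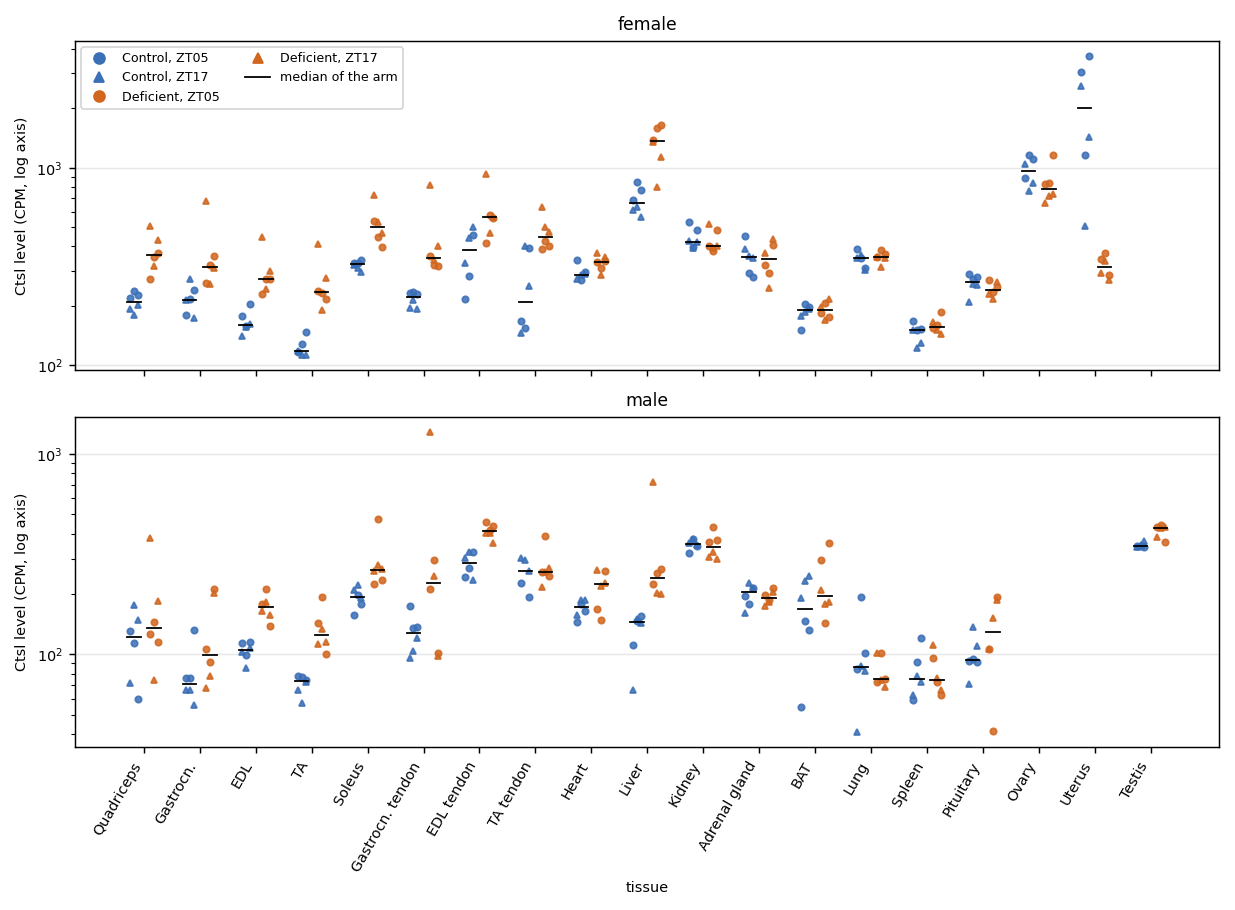
Ctsl level in every library (CPM, log axis) by tissue, females above and males below, with circles for ZT05, triangles for ZT17, blue for Control, orange for Deficient and a black line at the median of each arm. Deficient female uterus libraries lie between 272 and 372 CPM, below all Control ones, while the Deficient libraries of female tibialis anterior lie between 191 and 411 CPM, above all Control ones.

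Macrophages also hold much cathepsin L, so a list of 6 macrophage genes (Adgre1, Cd68, Csf1r, C1qa, C1qb and Mrc1) was read beside it. In female uterus their summed level was 435 to 635 CPM (median 482) in Control and 137 to 287 CPM (median 196) in Deficient libraries, and 6 of 6 fell with Ctsl. In female tibialis anterior the sum went down while Ctsl went up, from 39.4 to 60.7 CPM (median 52.2) to 20.8 to 37.8 CPM (median 25.2), again with 6 of 6 called lower. The sums in female liver were 134 to 154 CPM in Control and 115 to 160 CPM in Deficient libraries. Uterus shifted in other cell markers too. Its 5 neutrophil genes (S100a8, S100a9, Ngp, Camp and Ltf) summed to 2416 to 15300 CPM (median 7062) in Control and 24.1 to 1382 CPM (median 145) in Deficient libraries, with 3 of 3 tested genes called lower. Nearly all of that sum was Ltf (medians 7061 and 144 CPM), which uterine epithelium is also known to make, while S100a8 had medians of 0.846 and 0.139 CPM, S100a9 of 0.579 and 0.384 CPM, Ngp of 0 CPM in both groups, and Camp had 0 counts. The 3 endothelial genes (Pecam1, Cdh5 and Kdr) were all called higher, at a median sum of 204 and 342 CPM, and 2 of 4 tested skeletal muscle genes were called lower. The part of these cells in the uterine falls of Ctsl and Becn1 was not tested.
The limb muscles of the same females also moved in cell markers. Macrophage genes were called lower in all 5, with 4 to 6 of 6 genes. Neutrophil genes were scarce there but 2 of 2 tested were called higher in quadriceps, extensor digitorum longus and tibialis anterior, where the sum was 0.360 to 2.06 CPM (median 1.22) in Control and 0.666 to 13.1 CPM (median 1.96) in Deficient libraries. Of the 4 adipocyte genes, 4 were called lower in tibialis anterior and 1 in quadriceps. With 0 called, 4 of 4 were higher in gastrocnemius, 3 of 3 tested in extensor digitorum longus and 2 of 4 in soleus. In quadriceps, extensor digitorum longus and tibialis anterior, 1 of 3 endothelial genes was called lower. Of 5 skeletal muscle genes, 1, 1 and 2 were called lower in these muscles. The part of these shifts in the muscle rises was not tested.

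Within the Deficient females, 1 animal stood out in the limb muscles and tendons. Animal 36 (ZT17, replicate 1) had the highest Ctsl level among the 6 Deficient females in 8 of 8 limb muscles and tendons, and the highest Map1lc3b and Sqstm1 level in 6 of 8 each. The same animal was highest for Bnip3 in 5 of 8, for Atg7 and Map1lc3a in 4 and for Gabarapl1 and Ulk1 in 3. It was highest for Becn1 in 2 and for Tfeb in 0. In the other 10 female tissues, animal 43 (ZT05, replicate 2) was highest for Sqstm1 in 7 and for Ulk1 in 6. Animal 36 was highest there for Gabarapl1 in 5, for Map1lc3b and Tfeb in 4 and for Ctsl in 2. In gastrocnemius its Sqstm1 library is the maximum of 1105 CPM, beside a Deficient median of 668. Without that replicate in all tissues, 37 female pairs were raised and 2 lowered. Over the refits that each left out 1 replicate, the raised female pairs ran from 34 to 49. Tibialis anterior Ctsl stayed called in each of the 12 refits that left out 1 replicate (responses 0.92 to 1.197).

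**Figure D3:**
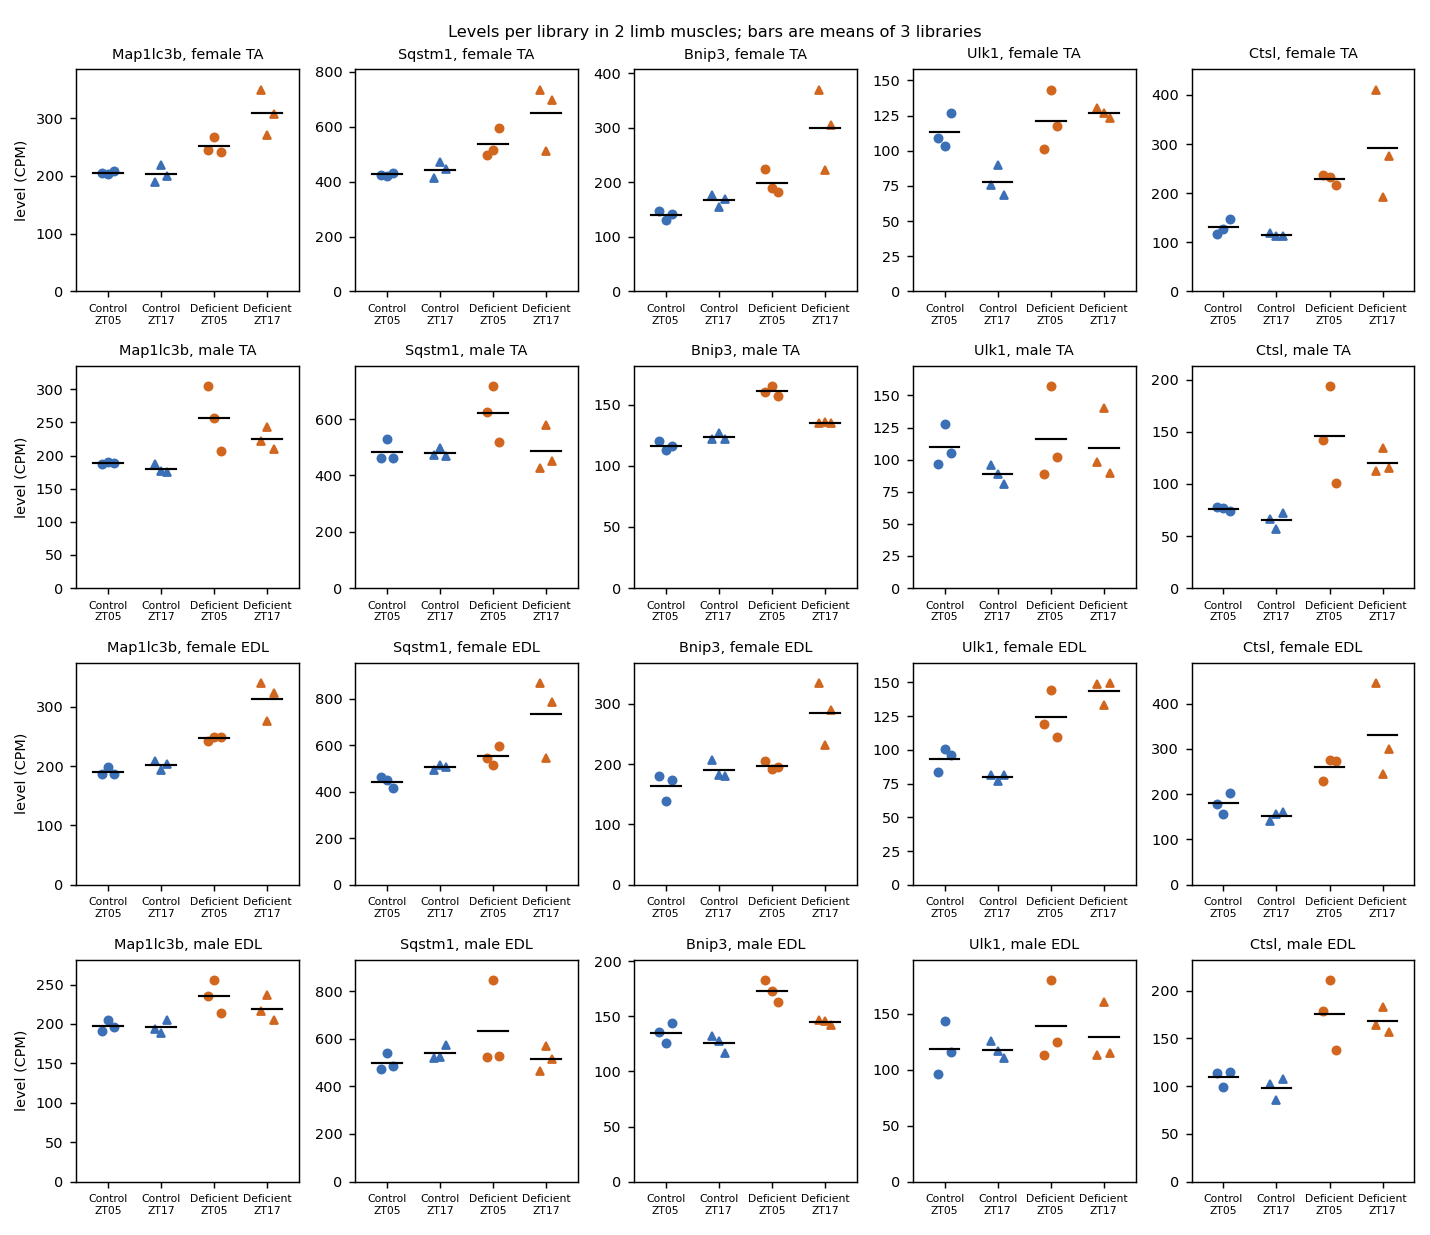
Level in every library (CPM, linear axes from 0) of Map1lc3b, Sqstm1, Bnip3, Ulk1 and Ctsl in tibialis anterior (TA) and extensor digitorum longus (EDL) of both sexes, by treatment and time, with bars at the mean of 3 libraries. In female TA, Ctsl ran from 112 to 147 CPM in Control and from 191 to 411 CPM in Deficient libraries, and in male TA from 57.0 to 77.7 CPM and from 101 to 194 CPM.

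In males, 16 of 170 pairs rose and 4 fell (9.41% and 2.35%, against 2.34% and 2.43% of all genes). Limb muscle held 10 of the rises in 50 pairs (3.09% of all genes raised there, 3.26% lowered), the tendons 2 in 30 (0.409% raised, 0.982% lowered), and the other 9 tissues 4 rises and 4 falls in 90 (2.59% raised, 2.46% lowered). The limb muscle rises were 4 in extensor digitorum longus, 4 in tibialis anterior and 2 in soleus, all from animals 73 to 94. Quadriceps and gastrocnemius, from both sets of animals, held 0, with 0% and 0.0271% of all genes raised. The count of rises varied between 6 and 15 when 1 replicate was left out in all tissues, with 6 without Control ZT05 replicate 1, 7 without Control ZT17 replicate 2, 7 without Deficient ZT17 replicate 2, 9 without Control ZT05 replicate 3, 9 without Deficient ZT17 replicate 1 and 10 without Control ZT17 replicate 3. In the 9 male tissues with no library above 50% mitochondrial or ribosomal counts, 15 of 90 pairs rose and 4 fell (3.92% and 4.03% of all genes there).

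Ctsl led again, with 5 male tissues raised and none lowered. In male tibialis anterior it went from 57.0 to 77.7 CPM (median 73.2) to 101 to 194 CPM (median 125), without overlap (0.91 ± 0.13, edgeR adjusted p = 0.00105). Extensor digitorum longus (0.73 ± 0.10, edgeR adjusted p = 0.000762), its tendon (0.55 ± 0.12, edgeR adjusted p = 0.0278) and soleus (0.59 ± 0.16, edgeR adjusted p = 0.0283) were separated as well. The largest called male response was in liver, from 66.3 to 155 CPM (median 145) to 200 to 728 CPM (median 240), at 1.25 ± 0.29 (edgeR adjusted p = 0.0146). It was 0.78 without Deficient ZT17 replicate 1, the library at 728 CPM (edgeR adjusted p = 0.059), and 1.09 without Control ZT17 replicate 1 (edgeR adjusted p = 0.0617). Male liver was among the 8 male tissues with a library above 50% mitochondrial or ribosomal counts. Its fit tested 9351 genes, the fewest of any tissue and sex.

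Map1lc3b rose in male tibialis anterior from 176 to 191 CPM (median 188) to 207 to 305 CPM (median 233), without overlap (0.38 ± 0.09, edgeR adjusted p = 0.0163), and in extensor digitorum longus (0.21 ± 0.06, edgeR adjusted p = 0.0329). Bnip3 rose in 4 male tissues, and in tibialis anterior it went from 113 to 127 CPM (median 121) to 135 to 165 CPM (median 147), a response of 0.30 ± 0.06 (edgeR adjusted p = 0.00602). Map1lc3a rose in male adrenal gland, from 84.4 to 155 CPM (median 100) to 129 to 200 CPM (median 166), a response of 0.62 ± 0.12 with overlap (edgeR adjusted p = 0.0222). This call was lost in 6 of 12 refits without 1 replicate and in the fit of both sexes (edgeR adjusted p = 0.221). Map1lc3a also rose in 3 male limb muscles, each with overlap or a shared edge between the groups. In tibialis anterior it went from 103 to 151 CPM (median 128) to 146 to 278 CPM (median 171), a response of 0.54 ± 0.14 (edgeR adjusted p = 0.0317), and the responses were 0.37 ± 0.10 in extensor digitorum longus (edgeR adjusted p = 0.0336) and 0.40 ± 0.10 in soleus (edgeR adjusted p = 0.0218). Gabarapl1 rose in the male extensor digitorum longus tendon, from 83.2 to 128 CPM (median 91.4) to 119 to 166 CPM (median 156), at 0.57 ± 0.13 (edgeR adjusted p = 0.0301), a call lost in 8 of 12 such refits and in the fit of both sexes (edgeR adjusted p = 0.0973). Ulk1, raised in 9 female tissues, was not called in any male tissue. The difference between the sexes was tested in each of the 16 shared tissues and passed for Ulk1 in none. Some male tissues with rises also moved in cell markers. In adrenal gland 2 of 4 adipocyte genes were called higher. In extensor digitorum longus 2 of 5 skeletal muscle genes were called lower, and in its tendon 1 of 5. In both of these, tibialis anterior and soleus, 1 of 3 endothelial genes was called lower. The part of these shifts in the male rises was not tested.

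Male kidney held all 4 falls. Sqstm1 dropped from 573 to 1102 CPM (median 748) in Control to 468 to 549 CPM (median 522) in Deficient libraries, without overlap, a response of -0.58 ± 0.10 (edgeR adjusted p = 0.00081). Map1lc3a dropped from 70.1 to 102 CPM (median 80.7) to 47.8 to 58.7 CPM (median 55.0), also without overlap (-0.59 ± 0.09, edgeR adjusted p = 0.000357). For Tfeb the libraries overlapped, at 25.7 to 35.9 CPM (median 28.5) and 13.4 to 26.1 CPM (median 22.0), with a response of -0.50 ± 0.15 (edgeR adjusted p = 0.0155). Atg7 fell by 0.23 (SE 0.08, edgeR adjusted p = 0.0437), a call lost in 8 of 12 refits without 1 replicate. With all replicates, the call was also lost with the replicate number as a block (edgeR adjusted p = 0.0734). Bnip3 rose there by 0.33 ± 0.11 (edgeR adjusted p = 0.0331), a call also lost in 8 of 12 such refits. Male kidney was a tissue of broad change, with 19.8% of all genes raised and 18.5% lowered. Its 6 macrophage genes summed to 99.0 to 179 CPM (median 104) in Control and 54.3 to 85.2 CPM (median 64.4) in Deficient libraries, with 4 of 6 called lower, and their part in the falls was not tested. In female kidney the sums were 108 to 139 CPM and 86.1 to 116 CPM, with 3 of 6 called lower.

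Averaged over both times, female kidney showed none of these falls. At ZT17 alone its Deficient Tfeb libraries lay below all its Control ones, as given below. Its Sqstm1 medians by group were 372 and 378 CPM in Control and 404 and 384 CPM in Deficient libraries (response 0.04 ± 0.07, edgeR adjusted p = 0.768), and its Map1lc3a response was -0.01 ± 0.06 (edgeR adjusted p = 0.91). In a fit of both sexes, the female minus male response was 0.62 ± 0.12 for Sqstm1 (edgeR adjusted p = 0.00253) and 0.58 ± 0.10 for Map1lc3a (edgeR adjusted p = 0.00148). These were the 2 of 160 pairs that differed between the sexes, a share near the 1.09% of all genes over the 16 tissues, and in kidney 13.7% of all genes differed. The male kidneys came from the second set of animals, so sex and animal set cannot be told apart in this difference. No limb muscle pair passed the test of the sex difference. The nearest by unadjusted p was Map1lc3b in extensor digitorum longus, with a female minus male response of 0.30 ± 0.08 (edgeR adjusted p = 0.22).

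**Figure D4:**
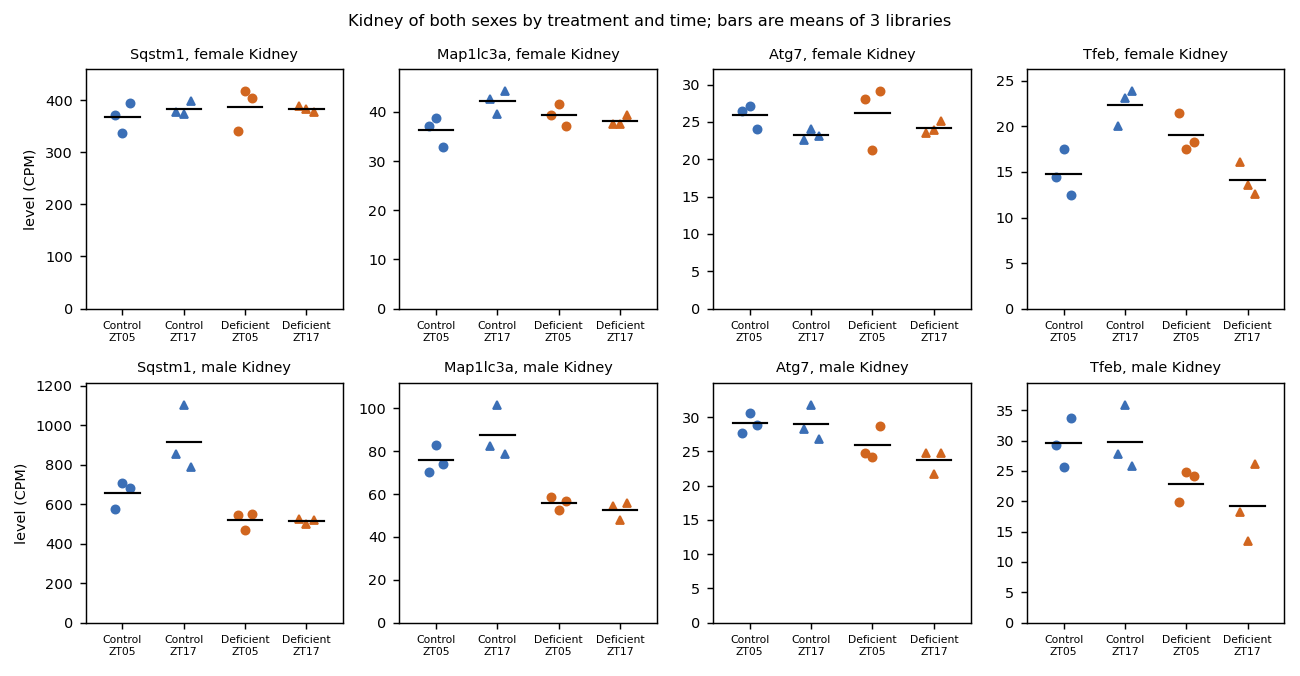
Level in every kidney library (CPM, linear axes from 0) of Sqstm1, Map1lc3a, Atg7 and Tfeb by treatment and time, females above and males below, with bars at the mean of 3 libraries. Male Deficient Sqstm1 libraries lie between 468 and 549 CPM, below all male Control ones, while the female arms overlap.

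Time of day moved Bnip3 and Gabarapl1 more often than the other members. In females, 15 pairs were higher at ZT17 and 7 lower, of 180 (3.28% and 3.49% of all genes), and in males 1 pair was lower and none higher (0.399% and 0.511%). The female count was 14 without Deficient ZT05 replicate 3 and 10 in the fit of both sexes. Gabarapl1 in female soleus gave 91.6, 103 and 129 CPM at ZT05 against 142, 172 and 180 CPM at ZT17 in Control libraries, and 103, 105 and 119 CPM against 186, 217 and 226 CPM in Deficient ones. All ZT17 libraries were above all ZT05 ones, and the difference was 0.77 ± 0.10 (log2 ZT17 over ZT05, edgeR adjusted p = 0.000612). In the same muscle Ulk1 was lower at ZT17, by -0.42 ± 0.09 (edgeR adjusted p = 0.0107).

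Bnip3 went opposite ways in different tissues. In adrenal gland it was lower at ZT17 in both sexes. Female Control libraries read 186, 194 and 236 CPM at ZT05 and 88.7, 108 and 120 CPM at ZT17, and male Control libraries 89.8, 94.6 and 104 CPM and 62.4, 65.4 and 68.1 CPM. With the Deficient arm included, no ZT17 library of either sex reached the ZT05 range, and the differences were -0.83 ± 0.12 in females (edgeR adjusted p = 0.0108) and -0.46 ± 0.07 in males (edgeR adjusted p = 0.00841). The female call was lost without Control ZT17 replicate 2 (-0.77, edgeR adjusted p = 0.06). In female brown adipose tissue Bnip3 was higher at ZT17, from 282, 305 and 320 CPM to 362, 466 and 508 CPM in Control libraries and from 346, 346 and 385 CPM to 505, 506 and 569 CPM in Deficient ones. The difference was 0.56 ± 0.09 (edgeR adjusted p = 0.000633), and was not called in the fit of both sexes (edgeR adjusted p = 0.0627). It was also higher at ZT17 in female quadriceps, extensor digitorum longus, tibialis anterior and soleus, by 0.37 to 0.43.
Several members moved with time in female liver. Map1lc3b was lower at ZT17 (-0.34 ± 0.08, edgeR adjusted p = 0.0111), as was Ctsl (-0.42 ± 0.12, edgeR adjusted p = 0.0228, lost in 4 of 12 refits without 1 replicate), while Sqstm1 was higher (0.34 ± 0.10, edgeR adjusted p = 0.036, lost in 7 of 12). Sqstm1 in brown adipose tissue was lower at ZT17 (-0.39 ± 0.09, edgeR adjusted p = 0.00769). In extensor digitorum longus Map1lc3a (0.32 ± 0.10, edgeR adjusted p = 0.0391) and Map1lc3b (0.21 ± 0.06, edgeR adjusted p = 0.0246) were higher at ZT17, with calls lost in 8 and 6 of 12 such refits. Of the time effects in this paragraph, those of Map1lc3b (edgeR adjusted p = 0.116), Ctsl (0.366) and Sqstm1 (0.179) in liver, Sqstm1 in brown adipose tissue (0.0798) and Map1lc3a in extensor digitorum longus (0.0505) were not called in the fit of both sexes. Gabarapl1 was also higher at ZT17 in female quadriceps, gastrocnemius tendon, extensor digitorum longus and lung, by 0.20 to 0.60, as were Map1lc3b in brown adipose tissue (0.18) and Sqstm1 in extensor digitorum longus (0.30).

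The treatment effect differed between the 2 times for 3 of 180 female pairs and for 0 of 170 male pairs, beside 0.699% and 0.714% of all genes. In males, 0 pairs passed in the edgeR fit and 5 by DESeq2. Gabarapl1 in female liver was the largest. Its Control libraries read 485, 492 and 529 CPM at ZT05 and 170, 205 and 239 CPM at ZT17, a day-night difference of -1.29 ± 0.14 (edgeR adjusted p = 0.000175). Its Deficient libraries read 309, 350 and 371 CPM at ZT05 and 330, 353 and 429 CPM at ZT17, a difference of 0.11 ± 0.14 (edgeR adjusted p = 0.677). The Deficient libraries thus sat between the Control levels of the 2 times at both, and the response at ZT17 exceeded that at ZT05 by 1.40 ± 0.20 (edgeR adjusted p = 0.00367). In each of 12 refits without 1 replicate it was called, at 1.28 to 1.51.
In female kidney, too, Gabarapl1 was lower at ZT17 in Control libraries, while the Deficient libraries of both times lay above the Control ZT17 range. Control libraries read 1037, 1128 and 1385 CPM at ZT05 and 617, 637 and 661 CPM at ZT17, whereas Deficient ones read 966, 1062 and 1243 CPM and 911, 1185 and 1207 CPM. The response at ZT17 exceeded that at ZT05 by 0.90 ± 0.20 (edgeR adjusted p = 0.0417). Tfeb in female kidney went the other way. In Control libraries it read 12.5, 14.4 and 17.5 CPM at ZT05 and 20.1, 23.1 and 23.9 CPM at ZT17, and in Deficient ones 17.5, 18.3 and 21.5 CPM and 12.6, 13.5 and 16.1 CPM. The time effect had opposite signs in the 2 arms, and the responses differed by -1.04 ± 0.20 (edgeR adjusted p = 0.0303). Both kidney calls were lost in 8 of 12 refits without 1 replicate, and that of Tfeb also in the fit of both sexes (edgeR adjusted p = 0.0512). The same difference for Gabarapl1 in males was 0.74 ± 0.41 in liver (edgeR adjusted p = 0.479) and 0.48 ± 0.21 in kidney (edgeR adjusted p = 0.382).

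**Figure D5:**
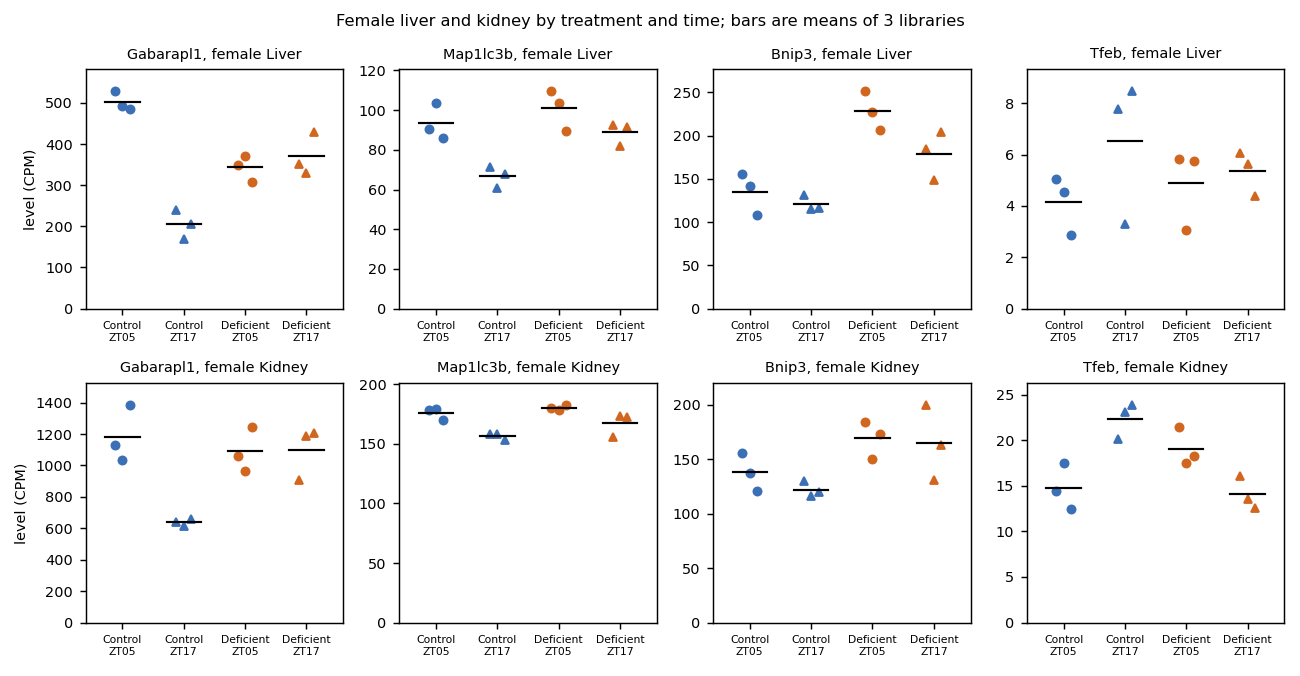
Level in every female liver and kidney library (CPM, linear axes from 0) of Gabarapl1, Map1lc3b, Bnip3 and Tfeb by treatment and time, with bars at the mean of 3 libraries. In liver, Gabarapl1 in Control libraries lies between 485 and 529 CPM at ZT05 and between 170 and 239 CPM at ZT17, and all Deficient libraries lie between 309 and 429 CPM.

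Another 55 genes of the pathway were read in the same fits to place the 10. In females, 110 of their 990 pairs rose (11.1%, beside 6.88% of all genes) and 58 fell (5.86%, beside 7.34%). In males 17 of 926 rose (1.84%, beside 2.34%) and 34 fell (3.67%, beside 2.43%). Receptors for selective autophagy had the largest share of rises among these groups, with 49 rises (20.9%) and 7 falls (2.99%) in 234 female pairs, and 10 rises (4.59%) and 6 falls (2.75%) in 218 male pairs. Calcoco1, an LC3-binding receptor, rose in 11 of 18 female tissues, most in the gastrocnemius tendon (from a mean of 101 to 150 CPM, response 0.57 ± 0.09, edgeR adjusted p = 0.00184). Retreg1, a receptor for turnover of the endoplasmic reticulum, rose in 10 of 18, most in gastrocnemius (from a mean of 211 to 558 CPM, 1.44 ± 0.20, edgeR adjusted p = 0.00144). Ncoa4, the receptor for ferritin, fell in 4 female tissues, most in pituitary (-0.43 ± 0.08, edgeR adjusted p = 0.0247), and Fundc1, a mitophagy receptor, fell in 3, most in the gastrocnemius tendon (-0.55 ± 0.10, edgeR adjusted p = 0.00434).
Genes of initiation and membrane supply rose in 39 (14.4%) and fell in 14 (5.19%) of 270 female pairs. In 253 male pairs they rose in 1 (0.395%) and fell in 7 (2.77%), beside 2.34% and 2.43% of all genes. Ambra1, a Becn1 partner, rose in 8 female tissues (most in gastrocnemius, 0.62 ± 0.15, edgeR adjusted p = 0.0194) and Atg13, a Ulk1 partner, in 6 (most in heart, 0.38 ± 0.08, edgeR adjusted p = 0.00616). Ulk2, the paralog of Ulk1, went the other way, with 9 female falls and no rise, the largest in liver (from a mean of 84.5 to 48.3 CPM, -0.81 ± 0.10, edgeR adjusted p = 0.00022). It also fell in 4 male tissues, most in the extensor digitorum longus tendon (-0.59 ± 0.12, edgeR adjusted p = 0.0204). In female extensor digitorum longus, where Ulk1 rose by 0.63, Ulk2 fell by 0.32 (edgeR adjusted p = 0.00206).
The conjugation genes, which work with Atg7, showed 2 rises (1.01%) and 14 falls (7.07%) in 198 female pairs, the falls near the 7.34% of all genes. In 185 male pairs they showed 2 rises (1.08%) and 7 falls (3.78%), beside 2.34% and 2.43% of all genes. Gabarapl2 fell in 4 female tissues, among them uterus (-0.62 ± 0.14, edgeR adjusted p = 0.00418), and Atg10 in 3, among them extensor digitorum longus (-0.54 ± 0.10, edgeR adjusted p = 0.0016). The lysosomal genes beside Ctsl had 17 rises (6.75%) and 22 falls (8.73%) in 252 female pairs, both near the shares of all genes. In 237 male pairs they had 3 rises (1.27%) and 13 falls (5.49%), beside 2.34% and 2.43% of all genes. Mcoln1, a lysosomal calcium channel, rose in 5 tissues (most in the extensor digitorum longus tendon, 0.34 ± 0.08, edgeR adjusted p = 0.0466) and Lamp1, a lysosomal membrane protein, in 4, while Lamp1 fell in uterus (-0.75 ± 0.15, edgeR adjusted p = 0.00215). Ctsa and Hexa each fell in 4 female tissues, with uterus lowest for both (-1.08 ± 0.18, edgeR adjusted p = 0.00073, and -0.99 ± 0.23, edgeR adjusted p = 0.00511). These uterine falls stand beside 24% of all genes lowered in that tissue.

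The 3 members with most called responses were Bnip3 (14 fits), Ctsl (12) and Map1lc3b (9). Over the 35 combinations of tissue and sex, and among 7869 genes tested in all of them, the responses most like that of Bnip3 were those of Pcbp2 (Spearman rho 0.77), Ugp2 (0.75) and Akirin2 (0.69). For Ctsl they were Zpr1 (0.81), Ubb (0.81) and Ccni (0.79), and for Map1lc3b Actr8 (0.86), Eif1 (0.82) and Ube2j1 (0.82). These combinations share animals and libraries, so the rho values are descriptions. Some members share exon bases with a neighbour on the opposite strand, most of all Becn1 with Cntd1 (43.9% of its exon bases), and whether the counting used strand is not given in the sources used here.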

How the data were processed

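RNA was measured by sequencing of polyA-selected, strand-marking libraries, per the labels' protocols. The authors deposited raw gene counts. The submitters' processing notes name the aligner STAR (2.7.10a), build GRCm38 (mm10), the trimmer cutadapt (4.1), DESeq2 (1.34.0) and FastQC (0.11.9), and the annotation release is not given in the sources used here. The deposited normalized table was not used. From the counts, 37 mitochondrial genes and 3 genes that collect ribosomal RNA (Lars2, Gm15564 and CT010467.1) were left out of library sizes and tests, since their share reached 95.4% of a library. Each tissue and sex was fitted alone in edgeR 4.0.16 (R 4.3.3) with filterByExpr (minimum count 10, minimum total 15), TMM factors, glmQLFit and glmQLFTest on the 4 groups of treatment and time, and p-values were adjusted over all genes of the fit (threshold 0.05). The SE is the response divided by the root of the F statistic. The female minus male response came from 1 fit of both sexes per tissue. The code was tested on simulated data. No 2 libraries of a group were identical. Alternatives were DESeq2's size factors, DESeq2 1.42.0 itself, other filters (none, or 5 CPM in 3 libraries), all genes kept, the replicate number as a block, both sexes in 1 fit, fewer animals, and each replicate left out in turn. All 10 genes are described, and a tissue is given in full where it held a gene's largest called rise or fall of at least 5 CPM by sex and by treatment or time, or one of the 3 largest calls in treatment by time or sex difference. Further tissues were added for context after their values were seen. Pathway genes named are the 2 called in most female tissues per direction and group. Gene positions and transcript lengths are from GENCODE M21. The members and lists were chosen with earlier results of these data known. The replicate numbers did not pair the samples. A further marker list is not reported here.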

Additional observations from a re-analysis of the deposited data

Results flagged for a closer look

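The response to deficiency differed between the 2 times of day, by a test of the difference itself, for 3 female pairs. Gabarapl1 differed in liver by 1.40 and in kidney by 0.90, and Tfeb differed in kidney by -1.04 (log2 response at ZT17 minus ZT05). The response differed between the sexes, again by a direct test, for 2 genes in kidney. The female minus male difference was 0.62 for Sqstm1 and 0.58 for Map1lc3a, where sex and the set of animals cannot be told apart and where 13.7% of all genes differed. Over all tissues these are 2 of 160 pairs, near the 1.09% of all genes. Groups of 3 or fewer libraries were not examined by a formal outlier test.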

How the results depend on the processing

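No direction of a named result reversed under any alternative run. With no filter, the calls were 5 for male time, 10 for female treatment by time, 3 for male treatment by time and 5 for the sex difference, and with DESeq2 they were 3, 6, 5 and 4. With both sexes in 1 fit, 30 female pairs were raised, 10 female pairs changed with time and 8 male pairs showed treatment by time, the last against 0. Of the 50 female calls, 28 were shared with that fit. The replicate numbers did not pair the samples: the mean correlation of same-numbered deviations ran from -0.105 to 0.229 over 35 fits, and in 0 fits was every pair over 0.1. With the replicate block, 4 male pairs showed treatment by time against 0, while 44 female and 15 male pairs were raised, and 3 of 37 named results lost their call. Of the named results, 12 of 31 lost it with both sexes in 1 fit, and 93 of 444 refits without 1 replicate lost it. With animals numbered 31 to 62 only, 1 male pair showed treatment by time. Leaving out 1 replicate in all tissues gave 34 to 49 female rises, 2 to 3 female falls, 6 to 15 male rises, 3 to 4 male falls, 14 to 24 female and 1 to 3 male time calls, 1 to 4 female and 0 to 1 male treatment-by-time calls. For the sex difference, 12 of the 24 replicates were drawn, and the calls ran from 2 to 3. The female Control uterus median of Ctsl was 2013 CPM, 1776 without TMM factors and 1731 over all counts. The cause of these shifts was not tested. Male libraries held as few as 329862 counts outside the excluded genes, and the precision of a level depends on that number.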

Other observations

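In all 18 female tissues the Tfeb response was lower at ZT17 than at ZT05, with differences from -1.04 to -0.07 and a median of -0.35, although 1 passed the test (kidney). The tissues come from the same 12 animals. Over the same tissues the Gabarapl1 difference was positive in 17 of 18 (median 0.34). In males the Tfeb difference was negative in 14 of 17 tissues (median -0.48) and the Gabarapl1 difference positive in 9 of 17 (median 0.05), with no call for either. In female Control libraries, Tfeb was higher at ZT17 than at ZT05 in 15 of 18 tissues, with differences from -0.20 to 0.69 and a median of 0.28.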
